A study of Mus musculus with 18 samples.

Results

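The Igf2bp genes encode RNA-binding proteins that attach to target messenger RNAs through RRM and KH domains and change their stability, transport or translation. They are named after Igf2, the mRNA of a growth factor that they bind. Igf2bp1 is known for holding Myc mRNA stable and for localising beta-actin mRNA, Igf2bp2 is the member that most adult tissues keep and lies at a human locus linked to type 2 diabetes, and Igf2bp3 is best known from the embryo and from tumours. The family was followed through H3K4me3, trimethylation of lysine 4 of histone H3, which marks the promoters of active or poised genes. Menin, the product of Men1, is a subunit of the Kmt2a and Kmt2b methyltransferase complexes that place this mark, and Igf2bp2 is described as one of its target genes. The comparison therefore asked how much of the H3K4me3 over each Igf2bp gene was still called in islets of Men1 knockout mice.

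The members were the H3K4me3 peaks that overlapped 3 fixed windows of the mouse genome (mm9), 1 around each gene. The windows were chromosome 11 from 95810000 to 95875000 for Igf2bp1, chromosome 16 from 22050000 to 22180000 for Igf2bp2, and chromosome 6 from 49030000 to 49172000 for Igf2bp3. They held 7 of the 21905 control peaks and 5 of the 21434 knockout peaks, and each gene had a peak in both lists. The control list came from pancreatic islets of RIP-Cre mice, in which the rat insulin promoter drives Cre recombinase. The knockout list came from islets of mice with an islet-specific deletion of Men1. Both groups were 2 months old and of mixed background, from the strains C57BL/6, FVB/N and 129s6, and each was a single library. The labels give neither the Men1 alleles nor the number of animals behind a library. The insulin promoter is active in beta cells, so other cells of the islet may keep Men1. The remaining 16 of the 18 samples were not analysed here.

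The RefSeq promoter table, on build GRCm38.p6, held Igf2bp2 and Igf2bp3. The sequence before the start of Igf2bp2 is shown because Igf2bp2 has the broadest peak of the family and CpG-rich promoters are known as frequent carriers of H3K4me3. It is the 250 bases upstream of the start on the minus strand (GRCm38.p6 chr16:22163300-22163549), with each CG dinucleotide in capitals, and it holds 40 of them.
Igf2bp2: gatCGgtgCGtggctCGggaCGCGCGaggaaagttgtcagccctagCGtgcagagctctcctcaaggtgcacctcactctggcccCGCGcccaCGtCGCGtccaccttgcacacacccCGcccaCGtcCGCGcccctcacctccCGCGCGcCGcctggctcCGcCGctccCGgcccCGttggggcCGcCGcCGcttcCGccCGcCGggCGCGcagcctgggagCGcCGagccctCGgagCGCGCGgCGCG

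Over the full 300 bases of the table, which add the first 50 transcribed bases, Igf2bp2 had 47 CG dinucleotides and 76.7% G and C. Fewer CG dinucleotides were found in 98.6% of the 32851 promoters of the table, whose median was 7. The Igf2bp3 promoter had 25 CG dinucleotides and 60.3% G and C, with fewer CG dinucleotides in 81.6% of promoters. Both were thus CpG-rich, Igf2bp2 more so. Short motifs were searched on both strands. The GC box GGGCGG matched at 2 positions for Igf2bp2 and at 0 for Igf2bp3, and 35.7% of all promoters held at least 1 match. The E-box CACGTG matched at 0 positions for Igf2bp2 and at 2 for Igf2bp3, where 7.15% of promoters held 1 or more and 0.594% held 2 or more. The E-box of Igf2bp3 that begins 23 bases before the start (GRCm38.p6 chr6:49214962-49214987, minus strand) is shown with the motif in capitals.
Igf2bp3: tgggattcctCACGTGagacgttgat

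CCAAT matched once for Igf2bp3 and at 0 positions for Igf2bp2, against 37.4% of promoters with a match, and TATAAA matched in neither, against 13.6%. These positions belong to GRCm38 and were not placed on the mm9 peaks, so which peak covers which start site was not analysed here. All peak positions below are mm9, counted from 1.

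Igf2bp2 carried a broad, high-scoring H3K4me3 peak in both genotypes, and the knockout peak was shorter. In control islets a single peak ran from 22160180 to 22164676 on chromosome 16, a width of 4497 bp. In Men1 knockout islets a single peak ran from 22161088 to 22164282, a width of 3195 bp. The knockout peak lay inside the control peak and kept 71.0% of its length, a loss of 1302 bp and a log2 ratio of knockout over control of -0.49. The control peak was among the broadest of its list, with only 2.66% of control peaks as wide or wider, while 8.23% of knockout peaks were as wide as the knockout peak or wider. The score that the authors deposited with each peak was 3100 in both lists. Many peaks are tied at that value, and 41.3% of control peaks and 33.4% of knockout peaks reached it or more, up to a highest score of 3233. The equal scores therefore do not show whether the height of the mark differed at Igf2bp2, and only its called extent was compared.

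**Figure D1:**
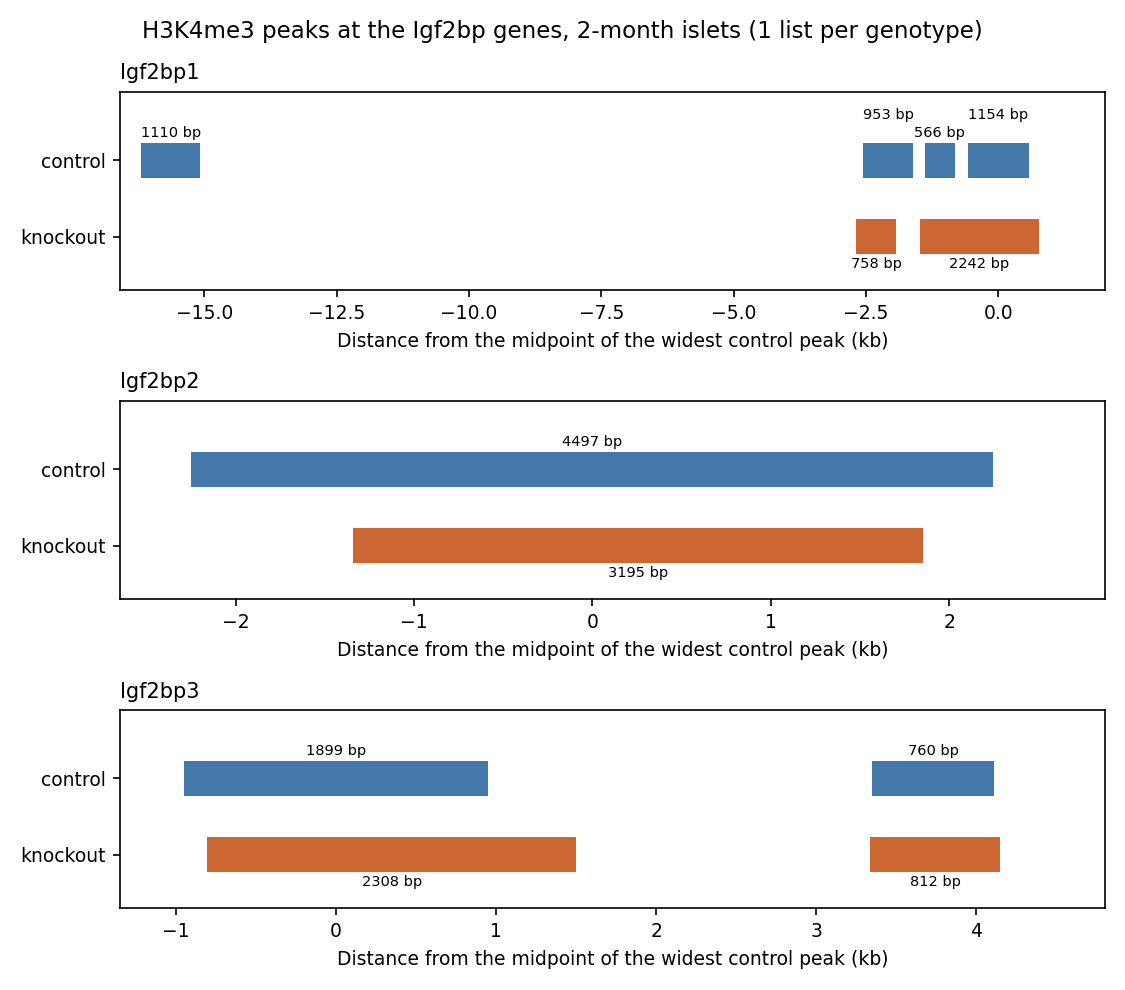
H3K4me3 peaks in the windows of Igf2bp1, Igf2bp2 and Igf2bp3, drawn to scale as bars for the control list (blue) and the Men1 knockout list (orange), with the width of each peak in bp. The horizontal axis is the distance in kb from the midpoint of the widest control peak of the window, and each panel has its own scale. The Igf2bp2 bar goes from 4497 to 3195 bp, and the control peak of 1110 bp at Igf2bp1 has no knockout bar.

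Most of the Igf2bp2 shortening was on the low-coordinate side. That border lay 908 bp further in, and the high-coordinate border 394 bp further in, so that 69.7% of the lost length was on the low-coordinate side. Over all 18299 pairs of 1 control and 1 knockout peak the median inward shifts were 66 and 70 bp, with an SD over pairs of 222 and 215 bp. An inward shift of 908 bp or more at the low-coordinate border was found in 0.628% of all pairs, and in 5.61% of the 784 pairs with a control peak of 4 kb or more. A shift of 394 bp or more at the high-coordinate border was found in 4.60% of all pairs and in 16.1% of the broad ones. The broad pairs were chosen by control width alone, which can favour pairs with a shorter knockout peak. RefSeq has Igf2bp2 on the minus strand, on which lower coordinates lie downstream. A knockout peak that stayed inside its control peak was common, at 54.7% of the broad pairs, and a loss of 1302 bp or more was found in 50 of them (6.38%).

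**Figure D2:**
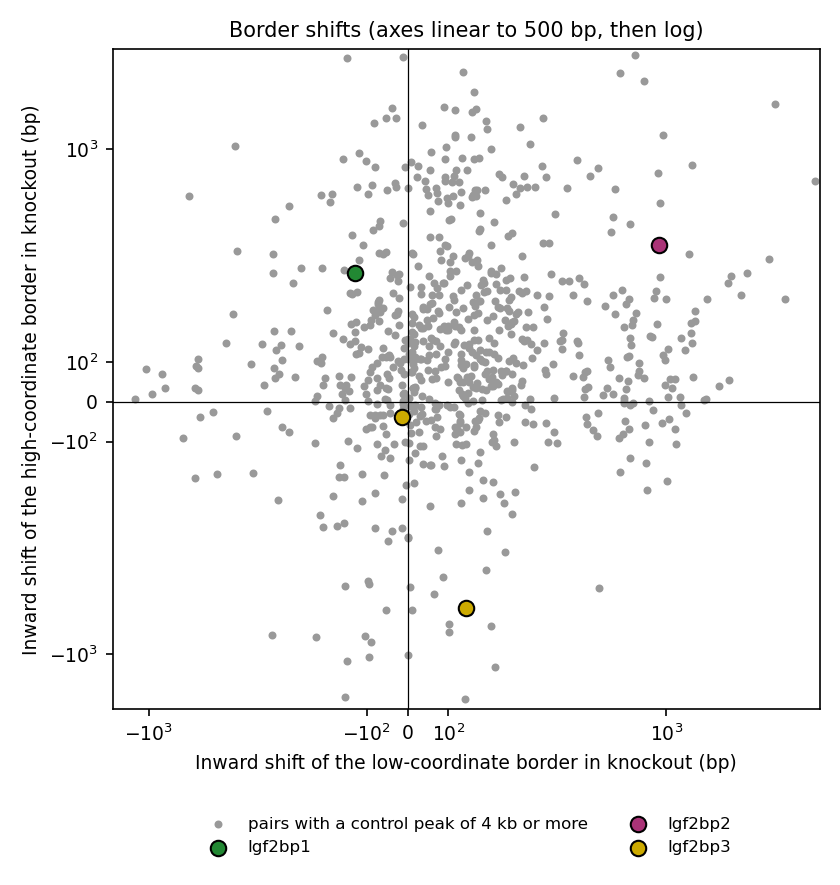
Inward shift in bp of the high-coordinate border (vertical) against that of the low-coordinate border (horizontal) in the knockout list. Both axes are linear to 500 bp and logarithmic beyond. Grey points are the 784 pairs with a control peak of 4 kb or more, and coloured points are the one-to-one pairs of the Igf2bp genes. The Igf2bp2 point lies at 908 and 394 bp, and the main Igf2bp3 pair lies below 0 on the vertical axis because its high-coordinate border moved outward.

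The Igf2bp2 ratio was low, but not at the extreme, among all regions and in narrower classes of them. Touching peaks of both lists were joined into 18970 regions marked in both, whose median log2 ratio was -0.11 (SD 0.29 over regions), so that the typical region kept 92.5% of its control length. Relative to that median Igf2bp2 was lower by a log2 difference of -0.38. A ratio as low or lower was found in 8.52% of all regions. The share was 4.98% of the 984 regions with a control length of 4 kb or more, whose median was -0.09 (SD 0.23). That cut was on control length alone and can favour regions that are longer in the control list. Igf2bp2 passed it in the control list only, as its knockout peak was 3195 bp wide. The share was 2.32% of the 1897 regions in the widest 10% by mean length of both lists. It was 1.44% of the 6726 one-to-one regions with both scores at or above 3100 (median -0.09, SD 0.15), and 3.75% of the 746 of these with a control length of 4 kb or more. On chromosome 16, Igf2bp2 had the 3rd lowest ratio of the 29 regions with a control length of 4 kb or more. These ranged from -0.56 to 0.19 with a median of -0.08. The 3.75% and this rank use the same cut on control length and share its limit. The shortening of 1.41-fold did not reach the fold of 1.5 used here to call a region.

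Igf2bp1 had low-scoring peaks, and its peaks did not move in one direction. The control list had 4 peaks in the window, which covered 3783 bp, and the knockout list 2 peaks, which covered 3000 bp, a log2 ratio of -0.33. Away from the others, the control list had a peak at 95852123 to 95853232, 1110 bp wide and scored 321, that no knockout peak overlapped. The nearest knockout peak was 12.4 kb away. This was the 1 control peak without a partner among the 7 of the family, beside 12.7% of all control peaks (exact 95% interval 12.2 to 13.1). Of 1230 control peaks with a score of 257 to 401, around that of this peak, 11.3% had no partner. Among the knockout peaks of the family 0 of 5 lacked a control partner, beside 8.71% of all knockout peaks.

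The other Igf2bp1 peaks formed a cluster near the high-coordinate end of the window, and there the knockout list covered more, not less. The control list had peaks of 953, 566 and 1154 bp with scores of 111, 61.2 and 116, separated by gaps of 218 and 246 bp. The knockout list had peaks of 758 and 2242 bp with scores of 87.0 and 371. The lowest of these control scores, 61.2, was close to the lowest of the whole list, 60.0. The wide knockout peak, at 95866841 to 95869082, bridged the last control gap and overlapped both control peaks beside it. It was the 1 knockout peak of the family's 5 that overlapped 2 or more control peaks, beside 0.728% of all knockout peaks. Control peaks of this cluster covered 2673 bp and knockout peaks 3000 bp, a log2 ratio of 0.17. Within it, the first region went from 953 to 758 bp (-0.33) and the second from 1720 to 2242 bp (0.38). With the bridged gap counted as covered, the second region had a control length of 1966 bp and a log2 ratio of 0.19. The fall in length over the whole Igf2bp1 window thus came from the single control peak without a partner.

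Igf2bp3 was marked at an intermediate score and was slightly longer in the knockout list. The control list had peaks of 1899 and 760 bp with scores of 1020 and 93.3, and the knockout list had peaks of 2308 and 812 bp with scores of 967 and 122. The control peaks covered 2659 bp and the knockout peaks 3120 bp, a log2 ratio of 0.23. The main peak ran from 49163364 to 49165262 in control and from 49163507 to 49165814 in knockout islets. Its low-coordinate border lay 143 bp further in and its high-coordinate border 552 bp further out. An outward shift of this size or more at that border was found in 0.525% of all pairs. That share is over pairs of any score and was not taken among pairs of similar score, where lengths scatter more. The gap to the second peak narrowed from 2401 bp in the control list to 1835 bp in the knockout list. The main region had a log2 ratio of 0.28 and the second of 0.10. In the RefSeq gene table the Igf2bp3 gene overlaps Malsu1 and the lncRNA D030074P21Rik, so a peak in this window need not belong to Igf2bp3 alone.

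The 3 genes differed in peak width, in score rank within a list and in the direction of the length difference. By width, the main control peak of Igf2bp2 exceeded 97.3% of its list, that of Igf2bp3 54.6%, and the widest at Igf2bp1 27.3%. By score, the best knockout peak of Igf2bp2 exceeded 66.6% of the knockout list, that of Igf2bp3 42.5% and that of Igf2bp1 31.0%. In the control list the shares were 58.7%, 41.0% and 27.3%, the last for the Igf2bp1 peak without a partner. For Igf2bp2 the 66.6% and 58.7% count only the peaks below the tied score of 3100. They follow from how many peaks are tied or higher in each list, and its rank within the tie is unknown. Of the 5 family regions marked in both lists, 2 were shorter in the knockout list and 3 were longer, while 26.1% of all such regions were longer by any length. The 5 regions come from 3 genes and are not separate cases. With peaks within 1 kb joined, both Igf2bp1 regions became 1 that was longer in the knockout list (0.17). At least 1.5-fold shorter were 0 of 5, beside 6.00% of all regions (interval 5.67 to 6.35), and at least 1.5-fold longer were 0 of 5, beside 0.949%. The regions of Igf2bp1 and Igf2bp3 had scores under 1200, a class in which lengths scatter widely. Over its 6290 regions the median log2 ratio was -0.17 (SD 0.40), and 29.5% were longer in the knockout list. A ratio as high as 0.38 was found in 5.68% of that class and one as high as 0.28 in 9.27%. Among 1897 regions of similar mean length over both lists, whatever their score, both were rarer. There 0.843% were as high as 0.38 (Igf2bp1), and 1.74% were as high as 0.28 (Igf2bp3). These shares were below the 2.32% as low as Igf2bp2 in its own length class. By score class the order was the other way. There 1.44% of one-to-one regions with both scores at or above 3100 were as low as Igf2bp2, against the 5.68% and 9.27% above. The 0.38 of Igf2bp1 was 0.19 with the bridged gap counted as covered. Which gene departs most thus depends on the class. The other regions of Igf2bp1 (-0.33) and Igf2bp3 (0.10) were less extreme, with 39.8% as low and 20.8% as high. Summed over the family, peaks covered 10939 bp in the control list and 9315 bp in the knockout list, a log2 ratio of -0.23, beside -0.15 for the whole lists.

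**Figure D3:**
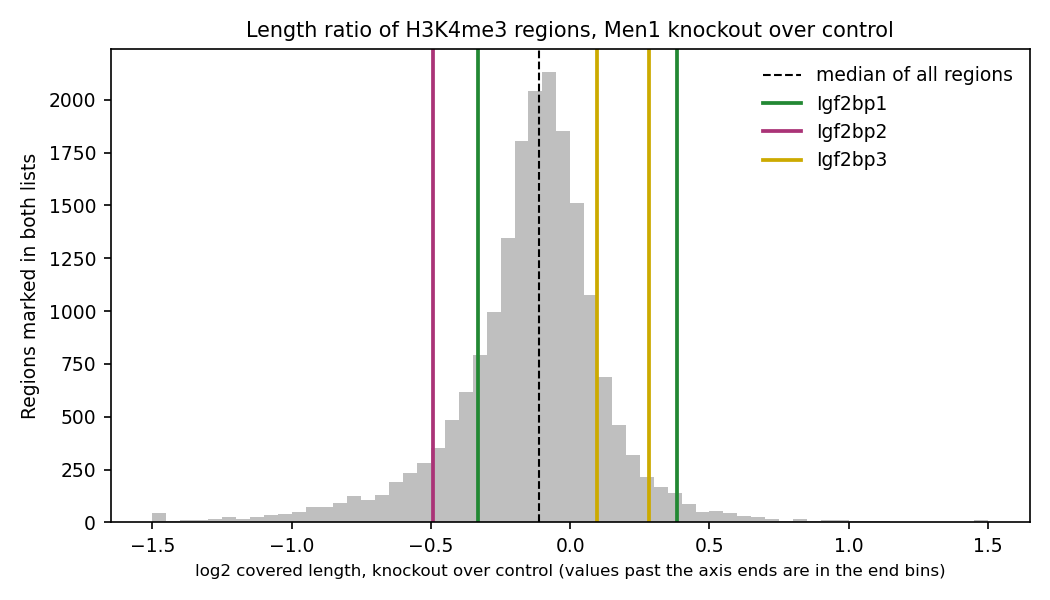
Number of regions marked in both lists (vertical) by log2 ratio of covered length, knockout over control (horizontal, bins of 0.05, with values beyond 1.5 in the end bins). The dashed line is the median of all regions, -0.11, and the coloured lines are the 5 family regions. Igf2bp2 lies at -0.49, the Igf2bp1 regions at -0.33 and 0.38, and the Igf2bp3 regions at 0.10 and 0.28.

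The neighbouring regions of Igf2bp2 marked in both lists were also shorter in the knockout list, as most regions were. The differences were smaller at the 2 high-scoring neighbours. Within 250 kb of the window on both sides lay 6 further regions marked in both lists, and 6 of 6 were shorter, beside 73.8% of all regions marked in both lists, with a median log2 ratio of -0.34 and a range of -1.03 to -0.06. A further 2 were found in the control list alone and 0 in the knockout list alone, where 12.7% of control peaks and 8.71% of knockout peaks had no partner over the whole lists. The 2 neighbours with the tied score of 3100 in both lists had ratios nearer to 0 than that of Igf2bp2. The one on the low-coordinate side went from 2192 to 2109 bp (-0.06), and on the high-coordinate side from 4217 to 3833 bp (-0.14). RefSeq names Senp2 and Tra2b as the next protein-coding genes on these sides, but the peaks were not assigned to them. The larger neighbouring ratios, from -0.30 to -1.03, belonged to regions with control scores of 182.7 to 1863. Around Igf2bp3, 5 of 7 neighbouring regions were shorter and 2 longer, with a range of -0.41 to 0.09, and 1 more was in the control list alone and 0 in the knockout list alone. Around Igf2bp1, 8 of 12 were shorter and 4 longer, and here 0 were in the control list alone and 2 in the knockout list alone. These counts are small, and the shares of shorter regions around Igf2bp1 and Igf2bp3 lie near that of all regions. Whether the 6 of 6 around Igf2bp2 differ from the 73.8% of all regions was not tested.

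**Figure D4:**
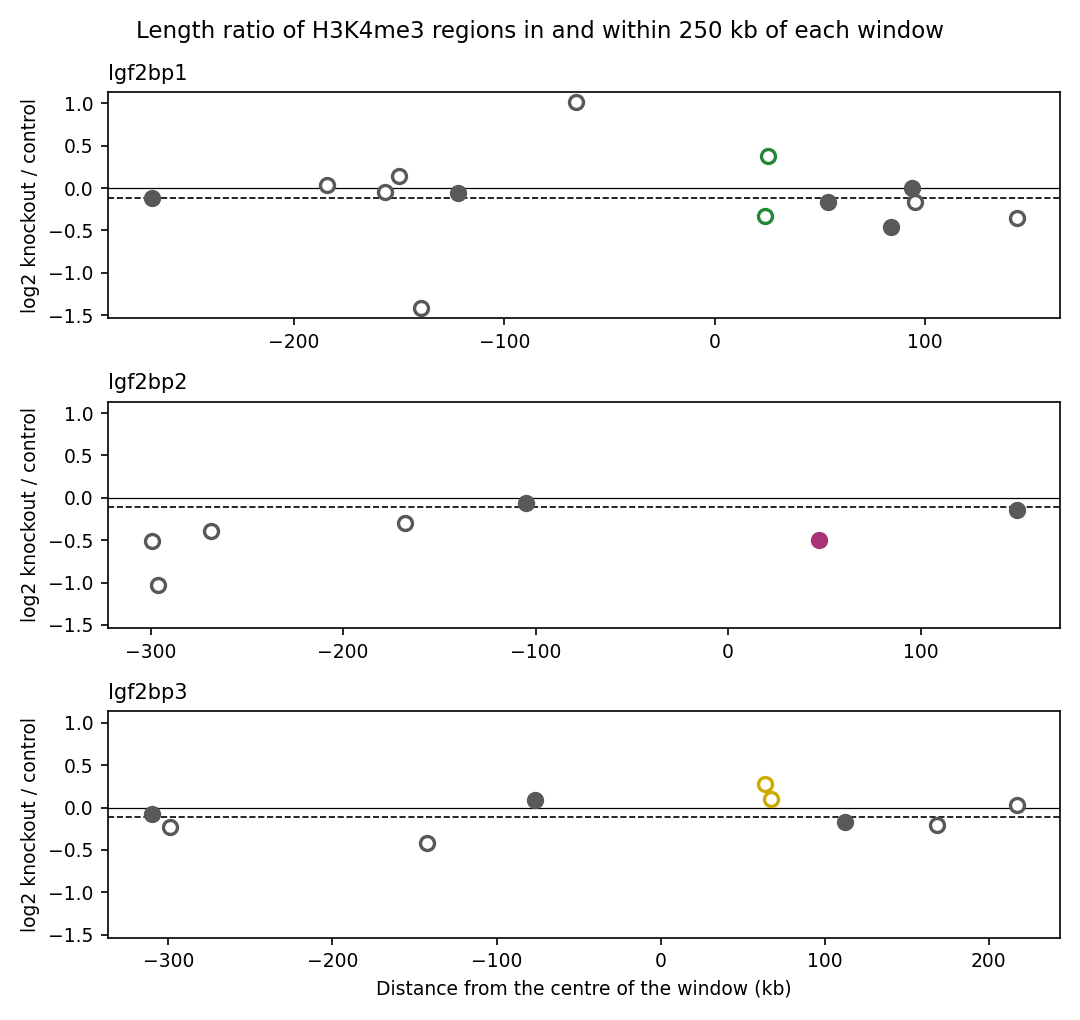
Log2 ratio of covered length (vertical) of each region marked in both lists, in the window (coloured) and within 250 kb of it (grey), by distance in kb from the window's centre (horizontal). Filled points have a score of 3100 or more in both lists, the dashed line is the median of all regions. Igf2bp2, at -0.49, lies below its filled neighbours at -0.06 and -0.14.

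Each genotype was represented by 1 library, so differences have no replicate check, no p-value was computed, and the SDs and shares above describe the scatter over regions of this pair of libraries. The lists hold no read counts, so the depth is unknown and the height of the mark was not compared. The covered length of the knockout list was lower as a whole (38.3 against 42.4 Mb), and its part in the family's differences was not tested. In whole islets, fewer marked cells and less mark per cell cannot be told apart. Without an mm9 annotation, Men1 itself and the marker genes of islet cells were not located.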

How the data were processed

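H3K4me3 ChIP-seq peak lists of 2 samples were used. Per the submitters' processing notes the tools were Bowtie and MACS 1.4.2 and the build mm9. The use of an input control, any filter on peaks and any pooling of mice are details not given in the sources used here. The authors deposited a position and a score for each peak, with no header and no counts. The scale of the score is not stated, so scores were ranked only within a list. The name of a list gives genotype, age and mark, which tied it to 1 sample, and also carries an unexplained "2nd" and "p6". The lowest scores were nearly equal, 60.01 in the control list and 60.02 in the knockout list. Whether a cut was set there is not stated. The columns left unused numbered 0.

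Peaks were kept as deposited and counted whole if they overlapped a window. Peaks were shared if they overlapped by at least 1 bp, and peaks of both lists that overlapped were joined into regions. Length ratios are log2 of knockout over control. Intervals are exact (Clopper-Pearson) 95% binomial intervals and cover counting error only. Calculations used Python 3.11.15, numpy 2.4.6 and scipy 1.17.1. The functions were tested on simulated data made from the 21905 control peaks, where 200 of 200 removed peaks were recovered and a true median of -0.2 gave -0.20. Bedtools 2.31.1 counted the same 19130 shared control peaks.

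Members, windows and gene lists were chosen with earlier results of these data known. The rule for named genes was the 3 members with every peak in their windows, and the regions within 250 kb. Other menin complex genes, bound RNAs, partners and cell type markers were listed for use only with an mm9 annotation and were not located. The classes by score (3100 or more, under 1200, and 0.8 to 1.25 times that of the unpartnered peak) were chosen after the values were seen. The class with a control length of 4 kb or more, and the rank on chromosome 16, were not among the comparisons planned in writing. The sequences come from RefSeq (GRCm38.p6), where 2 of 3 genes matched.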

Additional observations from a re-analysis of the deposited data

How the results depend on the processing

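The Igf2bp2 log2 ratio of -0.49 was the same under each alternative run, since its window holds 1 high-scoring peak per list. Of 39 recomputed values, 24 stayed the same, 14 moved and 1 changed sign. The 24 include every recomputed Igf2bp2 length ratio, for window and region alike, which none of these settings could change. For the Igf2bp1 window the ratio of -0.33 became -0.52 with a score of at least 100, -0.10 with equal numbers of peaks and -0.30 with peaks within 1 kb merged. When peaks within 1 kb were joined, both regions of its cluster became 1, with a ratio of 0.17, which is the opposite sign to the first region alone. The second region rose to 0.96 at a score of at least 100 and with equal numbers of peaks, because the control peak scored 61.2 dropped out. The Igf2bp3 window ratio was 0.72 at a score of at least 100, which left out 1 of its control peaks, and 0.17 with the window widened by 20 kb, which took in a neighbouring region. With a reciprocal overlap of 50%, 2 family control peaks had no partner in place of 1. The share of regions at least 1.5-fold shorter was 1.24% at 2-fold, 1.63% in the width class of Igf2bp2, 4.34% at a score of at least 100, 2.01% at or above each list's median score and 0.654% for one-to-one regions at the tied score, the last added after seeing the data. Another 8 values could not be had, as the peaks of Igf2bp1 or Igf2bp3 fell below the score. No paired analysis was possible because the labels number no replicates, with 1 library for control and 1 for knockout. Depth is unknown, and its part in these values was not tested.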

Other observations

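Around Igf2bp1 the low-scoring H3K4me3 regions differed in both directions over a short distance. The regions given here were picked with their values known, the first as the lowest and the next as the highest of the 12 neighbouring ratios. At 95701585 to 95703839 on chromosome 11 a control peak of 2255 bp faced a knockout peak of 845 bp (log2 ratio -1.42), with best scores of 418 and 103. At 95775701 to 95777109 a control peak of 655 bp faced a knockout peak of 1322 bp (1.01), with best scores of 65.8 and 164. Beyond the high-coordinate end of the same window, a region at 95924643 to 95927753 with a score of 3100 in both lists went from 3111 to 2257 bp (-0.46), a ratio close to that of Igf2bp2.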
